A study of Mus musculus with 10 samples.

Results

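The proteasome subunit genes were followed through RNA sequencing of mammary epithelial cells from mice that carried, or did not carry, an added protein arginine methyltransferase (PRMT). They were taken by symbol: Psma, Psmb, Psmc or Psmd followed by a number, and a value no lower than 10 in 2 or more libraries. All 38 matching genes met this minimum, out of 15694 genes that met it and 16290 in the table. They comprised 7 genes of the alpha ring, 7 constitutive genes of the beta ring, the 3 immunoproteasome genes Psmb8, Psmb9 and Psmb10, the thymus subunit gene Psmb11, 6 ATPase genes and 11 other genes of the regulatory particle, and Psmd5, Psmd9 and Psmd10. These last 3 encode chaperones that help to assemble the regulatory particle and are not part of the finished particle, although their symbols follow the same pattern. The testis subunit gene Psma8 was not analysed here.

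The 10 libraries fell into 4 groups, each of FVB mice: NIC-Prmt1 (n = 3), NIC-Carm1 (n = 3), NIC-Prmt6 (n = 2) and NIC (n = 2). NIC is not spelled out in the labels and is shared by all 4 groups, so that NIC alone served as the control for each PRMT genotype. The sources used here do not give the promoter that drives each PRMT transgene, the age of the mice or whether a library is 1 animal or a pool. Per the labels, cells were freed from dissected mammary glands with enzymes and enriched by short spins, and poly-A RNA was sequenced. Nothing in the labels says that replicates came from separate mice, so the p-values measure only the spread between these libraries. The submitters' stated question is which genes change in these cells when a PRMT is overexpressed.

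The proteasome is the barrel-shaped protease that degrades proteins tagged with ubiquitin. Its core particle is made of outer rings of alpha subunits, which gate the entrance, and inner rings of beta subunits, of which Psmb5, Psmb6 and Psmb7 encode the ones that cut. Interferon signalling induces Psmb8, Psmb9 and Psmb10, whose products take the places of those 3 in newly assembled immunoproteasomes and favour peptides that fit class I antigen presentation. The regulatory particle caps the core: its ATPases (Psmc genes) unfold the substrate, and its other subunits (Psmd genes) recognise ubiquitin and remove it. When proteasome activity is short, the transcription factor encoded by Nfe2l1 is known to raise the genes of the whole particle together.

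Sequences around the RefSeq start of the exchangeable beta 5 and beta 1 subunit genes are printed because these pairs are compared below. Each is the window of 300 bases that RefSeq annotation of GRCm38.p6 gives, from 250 bases before the transcription start to 50 after it, read 5′ to 3′ on the strand of the gene. Of the 38 genes, 32 had such a window. GENCODE places the 5′ end of the gene outside the window for Psmb8 (34197721, RefSeq start 34198195) and Psmb9 (34187764, RefSeq start 34187330). The windows of Psmb8 and Psmb9 thus lie inside the genes as GENCODE bounds them. Motif positions and shares below hold for the RefSeq starts only. Psmb8 lies at chr17:34197945-34198244 on the plus strand, Psmb5 at chr14:54617946-54618245 on the minus strand, Psmb9 at chr17:34187281-34187580 on the minus strand and Psmb6 at chr11:70525107-70525406 on the plus strand. Capitals mark a gamma-activated site in Psmb8 and the core of an antioxidant response element in Psmb5 and Psmb6.
Psmb8: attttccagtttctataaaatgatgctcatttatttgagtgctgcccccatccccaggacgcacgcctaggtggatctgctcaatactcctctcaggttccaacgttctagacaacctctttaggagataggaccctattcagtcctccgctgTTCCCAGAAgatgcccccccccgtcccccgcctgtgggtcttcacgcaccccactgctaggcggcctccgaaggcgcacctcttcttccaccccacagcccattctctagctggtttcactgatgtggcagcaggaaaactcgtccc
Psmb5: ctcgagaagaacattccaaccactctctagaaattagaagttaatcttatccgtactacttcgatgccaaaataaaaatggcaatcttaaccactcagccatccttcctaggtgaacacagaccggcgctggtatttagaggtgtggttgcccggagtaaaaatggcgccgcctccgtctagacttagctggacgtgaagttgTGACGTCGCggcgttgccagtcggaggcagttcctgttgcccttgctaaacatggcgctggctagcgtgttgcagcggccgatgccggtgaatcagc
Psmb9: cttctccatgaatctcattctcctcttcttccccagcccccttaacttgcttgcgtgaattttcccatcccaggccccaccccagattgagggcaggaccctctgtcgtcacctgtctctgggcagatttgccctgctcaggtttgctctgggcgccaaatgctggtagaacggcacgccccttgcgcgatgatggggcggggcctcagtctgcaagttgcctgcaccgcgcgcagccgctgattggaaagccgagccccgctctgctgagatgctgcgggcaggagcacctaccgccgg
Psmb6: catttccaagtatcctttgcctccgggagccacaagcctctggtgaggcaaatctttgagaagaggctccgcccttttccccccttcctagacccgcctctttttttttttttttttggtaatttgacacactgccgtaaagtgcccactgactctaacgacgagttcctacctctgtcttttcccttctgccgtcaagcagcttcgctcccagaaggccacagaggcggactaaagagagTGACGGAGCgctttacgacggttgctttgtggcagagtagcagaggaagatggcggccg
The gamma-activated site, a motif of genes that respond to interferon gamma, was searched as TTCNNNGAA on both strands. It began 97 bases before the RefSeq start of Psmb8 and was also found in Psmd2. It occurred in 5.88% of the 34 windows of proteasome genes and in 8.29% of all 32817 promoter windows. The antioxidant response element core, the sequence bound by the transcription factors encoded by Nfe2l1 and Nfe2l2, was searched as TGACNNNGC. It began 47 bases before the start of Psmb5 and 9 before that of Psmb6, and was also present in Psmc6, Psmd12 and Psmd9. Its share was 14.7% of the proteasome windows and 12.4% of all windows. The interferon-stimulated response element, searched as GAAA, any 2 bases and GAAA again on both strands, was found in Psmb3, Psmd4 and Psmd9, which is 8.82% of the proteasome windows, against 3.43% of all windows. None of the 3 motifs was found in the window of Psmb9.

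Each deposited value is a read count per gene divided by a size factor of its library, and is called the normalised read count here. Between 21589274 and 30260921 reads per library could be recovered from the values. Replicates 2 and 3 of NIC-Carm1 and the NIC-Prmt6 pair were nearly identical: a chi-square of their reads over its degrees of freedom was 2.69 and 2.44, where other pairs of a group gave 27.99 to 105. This exceeds counting noise but does not show that the libraries of such a pair are independent replicates. Each library was kept as its own, which can make the shared spread too small. Calls of the proteasome genes and of the related lists against NIC are therefore also counted below with each such pair replaced by its mean. Prmt6 was higher in NIC-Prmt6 than in NIC (log2 fold change 1.09 ± 0.20 SE, limma adjusted p = 0.00321), whereas Prmt1 was not shown to differ between NIC-Prmt1 and NIC (0.05 ± 0.12, adjusted p = 0.784). Carm1 was higher than in NIC in all 3 PRMT groups (0.46 to 0.60). The names NIC-Prmt1 and the like therefore stand for the libraries labelled so. The 6 luminal epithelium markers and all 5 basal markers were detected in every library.

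Proteasome transcripts as a whole were most abundant in NIC. The 38 genes summed to 72650.4, 79357 and 87134 normalised read counts in NIC-Prmt1, to 88013, 81097 and 82474 in NIC-Carm1, and to 71068 and 72019.8 in NIC-Prmt6, against 96449 and 105640 in NIC. Both NIC libraries lay above each of the other 8. As CPM, the reads scaled to a common library total, the family came to 2878, 3163 and 3328 in NIC-Prmt1, 3429, 3374 and 3432 in NIC-Carm1, and 2747 and 2767 in NIC-Prmt6, against 3491 and 3764 in NIC. On this scale the NIC-Carm1 libraries came close to the lower NIC library without reaching it.

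**Figure D1:**
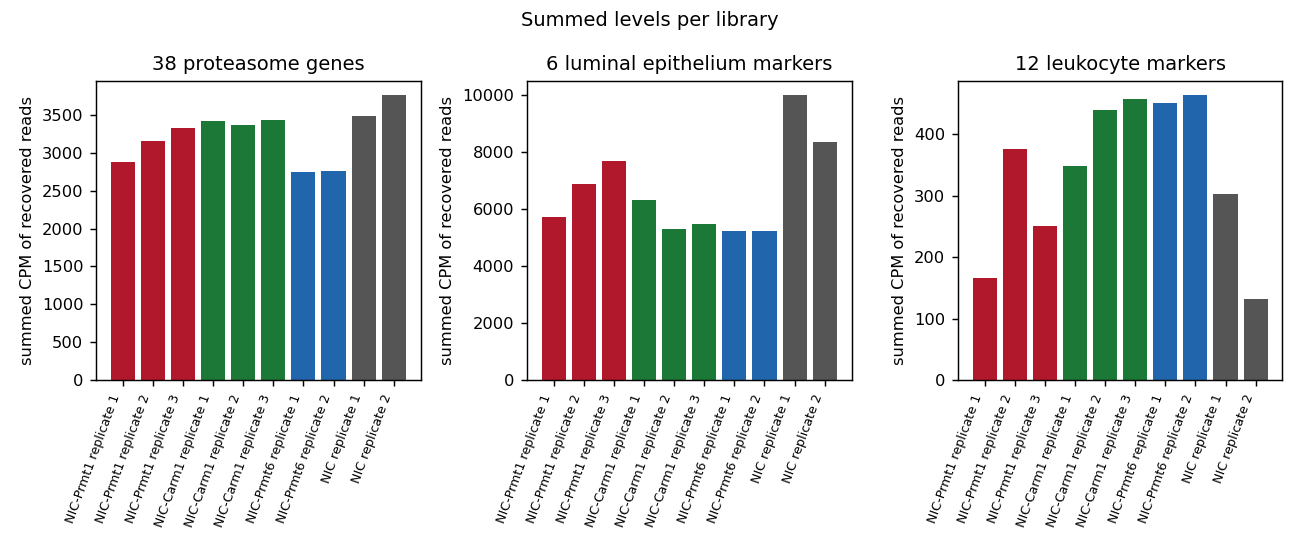
Summed CPM (y axis, from 0) for each of the 10 libraries (x axis), for the 38 proteasome genes, 6 luminal epithelium markers and 12 leukocyte markers; each bar is 1 library, coloured by group. The NIC libraries have the tallest bars for the proteasome genes (3491 and 3764) and for the luminal markers (10001 and 8361).

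Summed, the luminal markers (Epcam, Krt8, Krt18, Krt19, Cdh1 and Elf5) were, like the family, most abundant in NIC. Their order among the other libraries was not that of the family. Epcam, Krt8, Krt18 and Cdh1 were higher in both NIC libraries than in any other library. Krt19 was highest in NIC-Prmt1 (1058 to 1344 CPM, against 826 and 654 in NIC). Elf5 was highest in NIC-Carm1 (281 to 456 CPM, against 192 and 207 in NIC). The 6 markers summed to 5707 to 7675 CPM in NIC-Prmt1, 5287 to 6332 in NIC-Carm1 and 5222 to 5232 in NIC-Prmt6, against 8361 and 10001 in NIC. Of the 6, 3, 4 and 5 were called lower than in NIC in these groups, with 1 called higher in NIC-Prmt1. Of all genes tested, 14.4%, 9.36% and 17.8% were called lower. With the nearly identical libraries averaged, 2, 0 and 2 were called lower. The 5 basal and myoepithelial markers summed to 3208, 1739 and 2478 CPM in NIC-Prmt1, 917 to 972 in NIC-Carm1 and 983 to 985 in NIC-Prmt6, against 783 and 666 in NIC. Of these 5, 4 were called higher in NIC-Prmt1, 0 in NIC-Carm1 and 1 in NIC-Prmt6, with medians of 1.46, 0.25 and 0.04. Among all genes, 15.2%, 6.65% and 19% were called higher in these groups. Whether the basal list was called more often than other genes was not tested. The 5 fibroblast markers ran the other way in part, at 4335 to 5984 CPM in NIC-Prmt1, 3069 to 3608 in NIC-Carm1 and 10436 to 10493 in NIC-Prmt6, against 2755 and 3399 in NIC. Endothelial markers (3 genes) were at 1049 to 1430, 608 to 679 and 1423 to 1443 CPM in the PRMT groups in the same order, against 616 and 723 in NIC. Leukocyte markers (12 genes) summed to 166 to 376 CPM in NIC-Prmt1, 348 to 457 in NIC-Carm1 and 451 to 464 in NIC-Prmt6, against 131 and 303 in NIC, and the 1 marker at 0 anywhere was Ms4a1 in NIC-Prmt1 replicate 1. Skin keratinocyte markers reached 768 and 79.4 CPM in NIC-Prmt1 replicates 1 and 3 and at most 4.14 CPM elsewhere, with Lor at 0 in NIC-Prmt6 replicate 1 and Krt25 and Krt77 at 0 in NIC replicate 1. The part of these cell types in the proteasome results was not tested. In bulk RNA, fewer cells of a type and less RNA per cell cannot be told apart.

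Gene by gene the same picture held for most of the family. The mean was highest in NIC for 33 of the 38 genes and lowest in NIC-Prmt6 for 32. The highest single library was NIC replicate 2 for 25 genes and NIC replicate 1 for 4. For 20 genes (52.6%) both NIC libraries lay above all 8 others, against 12.2% of all genes tested. Over the 4 groups together, limma's moderated F test called 24 of 38 (63.2%), where it called 52.8% of all genes. That count was 3 with the nearly identical libraries averaged, 12 without NIC replicate 2, and 14 and 15 without NIC-Prmt6 replicates 1 and 2.

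**Figure D2:**
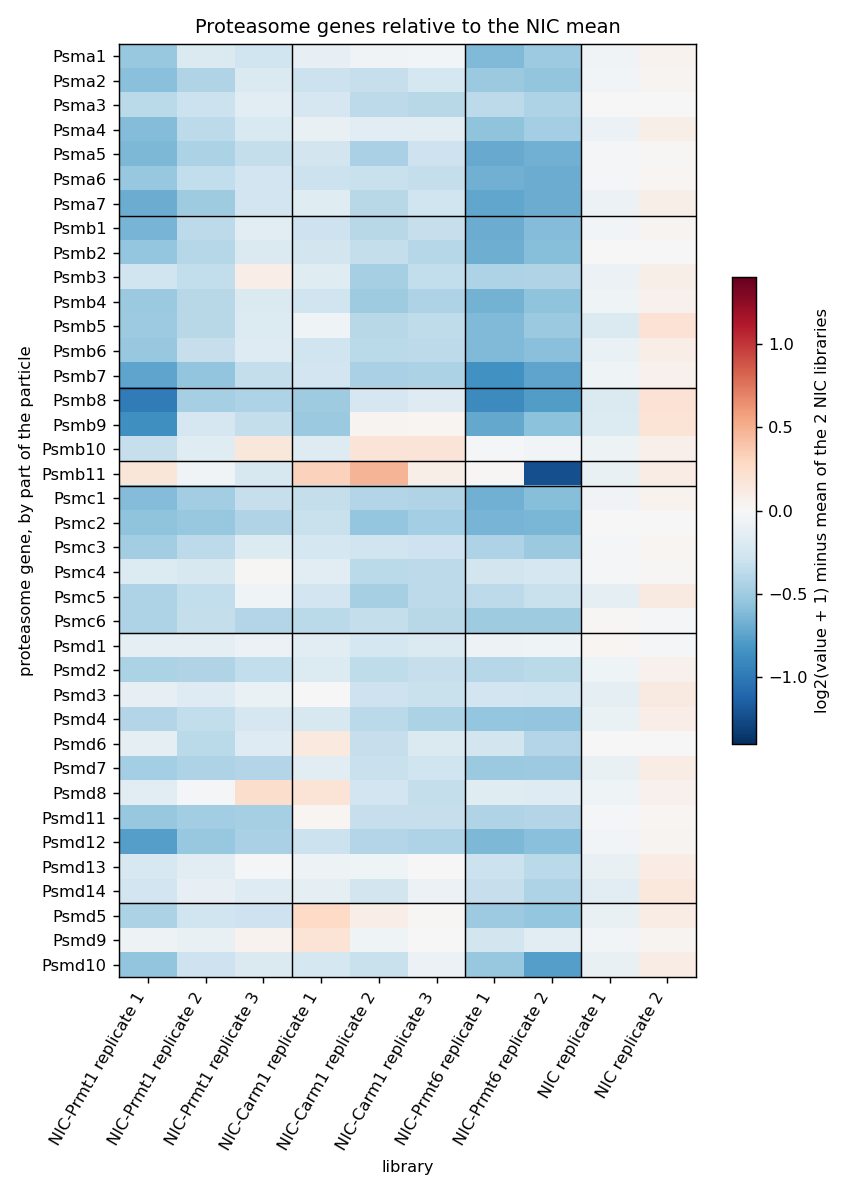
Each of the 38 proteasome genes (y axis, grouped by part of the particle) in each of the 10 libraries (x axis), as log2(value + 1) minus the mean of the 2 NIC libraries; blue is below NIC and red above. Blue fills most of the NIC-Prmt6 columns and NIC-Prmt1 replicate 1, and Psmb10, Psmd1, Psmd8 and Psmd9 stay pale in most columns.

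In NIC-Prmt1, proteasome genes were lower than in NIC across the core and the regulatory particle. With a threshold of 0.05 on the limma adjusted p, 23 of 38 genes (60.5%) fell, where 14.4% of all genes tested fell. None rose, also at an unadjusted p under 0.05, with edgeR or with DESeq2, where 15.2% of all genes rose with limma. The median log2 fold change of the family was -0.36, and that of all genes -0.00. In 27 genes (71.1%) every NIC-Prmt1 library lay below both NIC libraries, against 27.1% of all genes.

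The alpha ring fell as a whole in NIC-Prmt1: all 7 genes were called, between -0.28 (Psma3) and -0.48 (Psma7). Of the constitutive beta ring 5 of 7 fell, from -0.35 (Psmb6) to -0.54 (Psmb7), and of the ATPases 4 of 6 fell. Among the other regulatory subunits 5 of 11 fell, and the median of that class was -0.23. Psmd12, a scaffold subunit of the lid, had normalised read counts of 1373, 1627 and 1706 in NIC-Prmt1, against 2274 and 2413 in NIC. All 3 NIC-Prmt1 libraries were below both NIC libraries, and the log2 fold change was -0.58 ± 0.10 (SE, limma adjusted p = 0.00397). The ATPase gene Psmc2 stood at 1738, 1779 and 1915 in NIC-Prmt1 and at 2578 and 2555 in NIC (-0.50 ± 0.09, adjusted p = 0.00427). Another ATPase gene, Psmc6, stood at 1815, 1931 and 1835 in NIC-Prmt1 and at 2468 and 2413 in NIC (-0.39 ± 0.08, adjusted p = 0.00531). In both ATPase genes the groups were separated by a gap wider than the range within either group. The calls of Psmd12 and Psmc2 held in every alternative run, and that of Psmc6 ended when NIC-Prmt1 replicates 1 and 3, the ones with skin transcripts, were both left out (adjusted p from 1.895e-05 to 0.0607 over the alternatives).

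The count in NIC-Prmt1 depended on single libraries. It was 13 of 38 without NIC replicate 1, 3 without NIC replicate 2, 13 without NIC-Prmt1 replicate 1, and 15 without either NIC-Prmt6 library, which enter through the shared spread. It was 9 with the nearly identical libraries averaged and 8 with NIC-Prmt1 replicates 1 and 3 both left out.

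**Figure D3:**
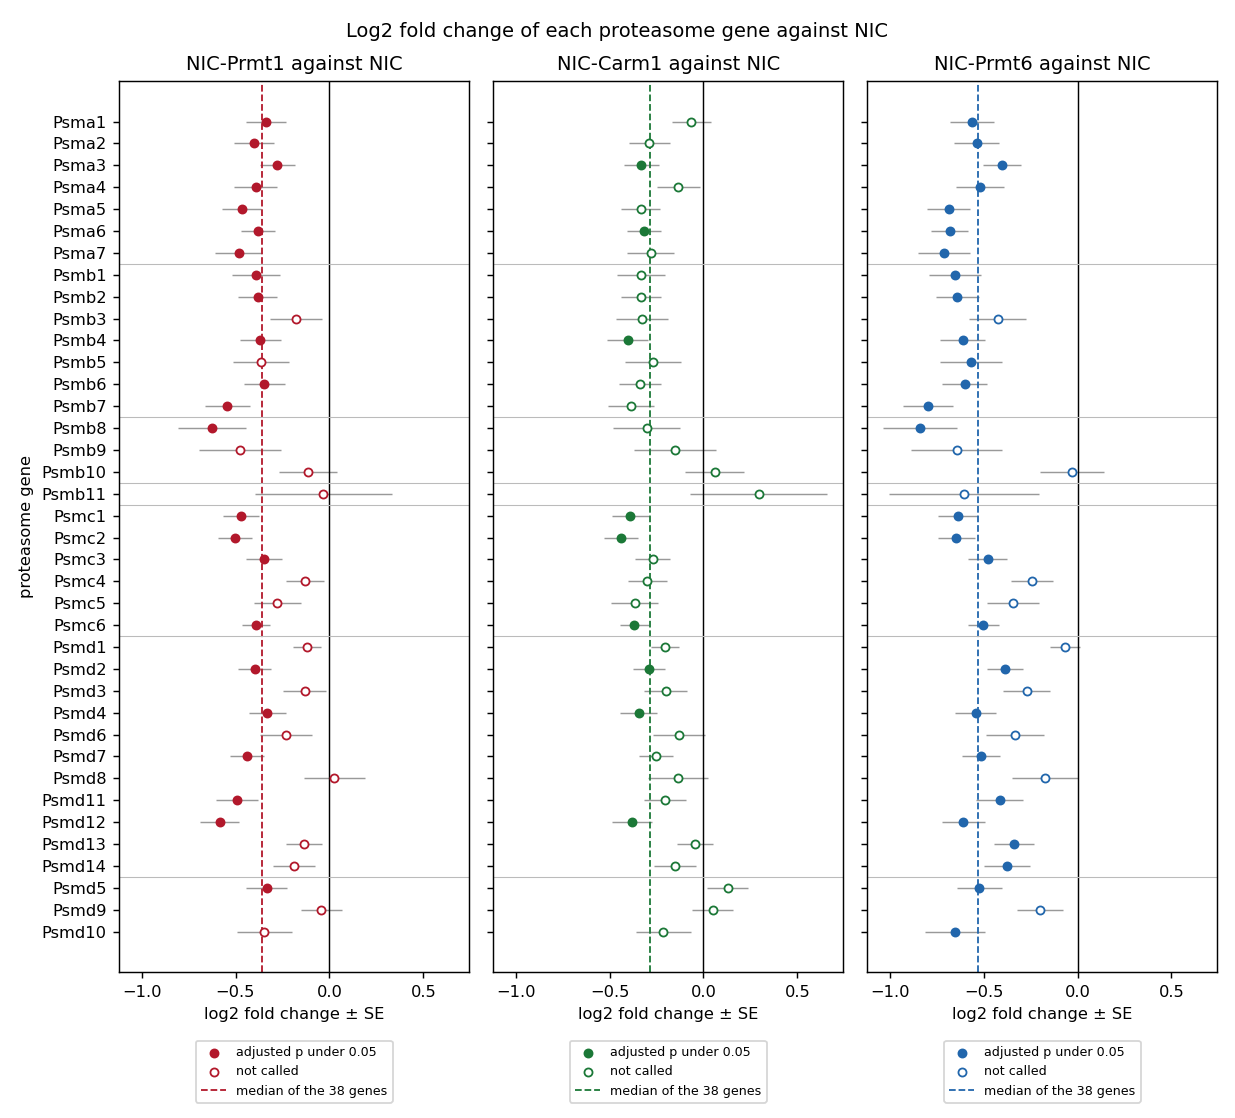
Log2 fold change of each proteasome gene (x axis, ± SE from limma) against NIC in NIC-Prmt1, NIC-Carm1 and NIC-Prmt6; filled points passed an adjusted p of 0.05, open points did not, and the dashed line is the median of the 38 genes. The medians lie at -0.36, -0.29 and -0.53, and no filled point lies above 0.

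In NIC-Carm1 the differences from NIC were smaller and fewer passed the test. Of the 38 genes, 9 (23.7%) fell, where 9.36% of all genes fell, and none rose with limma (also at an unadjusted p under 0.05), edgeR or DESeq2, where 6.65% of all genes rose. The median of the family was -0.29, against 0.00 for all genes. Genes with every NIC-Carm1 library below both NIC libraries numbered 23 (60.5%), against 24.5% of all genes. The 9 genes were Psma3 and Psma6 of the alpha ring, Psmb4 of the beta ring, the ATPase genes Psmc1, Psmc2 and Psmc6, and Psmd2, Psmd4 and Psmd12 of the rest of the regulatory particle. Psmd4 encodes a ubiquitin receptor and Psmd2 a scaffold of the base.

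The 3 ATPase genes had the smallest p in NIC-Carm1. Psmc6 had normalised read counts of 1879, 1936 and 1861 in NIC-Carm1, against 2468 and 2413 in NIC, a log2 fold change of -0.37 ± 0.08 (SE, limma adjusted p = 0.0120). Psmc2 had 2074, 1769 and 1844.5 in NIC-Carm1, against 2578 and 2555 in NIC (-0.44 ± 0.09, adjusted p = 0.0126). Psmc1 had 2416, 2292 and 2287 in NIC-Carm1, against 2951 and 3158 in NIC (-0.39 ± 0.10, adjusted p = 0.0251). In all 3 genes each NIC-Carm1 library was below both NIC libraries. These calls ended in 4, 5 and 8 of the alternatives, among them those without NIC replicate 1, without NIC-Carm1 replicate 3 and with averaging (highest adjusted p 0.128, 0.121 and 0.160).

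The NIC-Carm1 count moved with nearly every library. It was 0 without NIC replicate 1, where 23 genes still had an unadjusted p under 0.05, and 0 without NIC-Carm1 replicate 3. It was 1 without NIC replicate 2 or NIC-Carm1 replicate 2, and 2 without either NIC-Prmt6 library. It was 16 without NIC-Prmt1 replicate 1 or 3 and 15 without NIC-Carm1 replicate 1. With nearly identical libraries averaged it was 0, with 10 genes at an unadjusted p under 0.05, and with DESeq2 it was 15.

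The NIC-Prmt6 libraries had the lowest proteasome transcript levels. Against NIC, 27 of 38 genes (71.1%) fell, where 17.8% of all genes fell. None rose with limma (also at an unadjusted p under 0.05), edgeR or DESeq2, where 19% of all genes rose. The family median was -0.53, against -0.01 for all genes, and in 36 genes (94.7%) both NIC-Prmt6 libraries lay below both NIC libraries, against 38.6% of all genes. The exceptions were Psmb10 and Psmb11.

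All 7 alpha ring genes fell in NIC-Prmt6, from -0.40 (Psma3) to -0.71 (Psma7). So did 6 of 7 constitutive beta genes, of which Psmb7 fell by most (-0.80), 4 of 6 ATPase genes, 7 of 11 other regulatory subunits, and the chaperone genes Psmd5 and Psmd10. Psma6 had normalised read counts of 1711 and 1688 in NIC-Prmt6, against 2679.9 and 2775 in NIC (-0.68 ± 0.10 SE, limma adjusted p = 0.00103). Psmc2 had 1634.5 and 1646 in NIC-Prmt6, against 2578 and 2555 in NIC (-0.65 ± 0.10, adjusted p = 0.00133). Psma5 had 1486 and 1515 in NIC-Prmt6, against 2396 and 2434 in NIC (-0.69 ± 0.11, adjusted p = 0.00173). The NIC libraries differed from each other by far less than from NIC-Prmt6. The NIC-Prmt6 pair was nearly identical, so the small difference within it is no measure of the spread between replicates. The 3 calls held in every alternative run. The NIC-Prmt6 count was 17 without NIC replicate 2 or without either NIC-Prmt6 library, and 7 with the nearly identical pair averaged, where the lone NIC-Prmt6 value takes its spread from the remaining groups.

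The 3 comparisons share the NIC libraries, so their counts are not independent of each other. Rescaling to the library total shifted the median of all genes to 0.12 in NIC-Prmt1, 0.18 in NIC-Carm1 and 0.09 in NIC-Prmt6. The proteasome medians were then -0.23, -0.10 and -0.43, or 0.35, 0.29 and 0.52 below the all-gene median. The calls were then 10, 1 and 25 lower, and 1 gene was called higher in NIC-Carm1. Rescaling shifts all genes of a library alike, so the distance from the median gene is fixed by construction, while the distance from 0 is not. Of all calls in NIC-Carm1 against NIC, 41.5% were higher as deposited, 51.6% after upper quartile rescaling and 76.1% after rescaling to the library total.

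Psmb8 was the proteasome gene with the lowest fold change in both NIC-Prmt1 and NIC-Prmt6. It encodes the immunoproteasome subunit of the beta 5 position (chromosome 17, 34197721 to 34201454, plus strand, GRCm38). Its normalised read count was 2527, 3595 and 3688 in NIC-Prmt1, 3532, 4212 and 4389 in NIC-Carm1, and 2684 and 2882 in NIC-Prmt6, against 4309 and 5731 in NIC. All NIC-Prmt1 and NIC-Prmt6 libraries lay below both NIC libraries, and NIC-Carm1 replicate 3 lay above NIC replicate 1. Psmb8 fell in NIC-Prmt1, with a log2 fold change of -0.62 ± 0.18 (SE, limma adjusted p = 0.0277), and in NIC-Prmt6, with one of -0.84 ± 0.20 (adjusted p = 0.00925). In NIC-Carm1 its log2 fold change was -0.30 ± 0.18 (adjusted p = 0.283). Without NIC replicate 2, the highest library, neither call held (adjusted p up to 0.210 in NIC-Prmt1 and 0.0816 in NIC-Prmt6 over all alternatives). The NIC-Prmt1 call also ended without NIC-Prmt1 replicate 1, without NIC-Prmt1 replicates 1 and 3, in a fit of the 2 groups alone, with averaging and after rescaling to the library total, and the NIC-Prmt6 call without NIC-Prmt6 replicate 1 and with averaging.

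Its constitutive counterpart Psmb5 (chromosome 14, 54614119 to 54618022, minus strand), the chymotrypsin-like subunit, stood at 847, 919 and 1053 in NIC-Prmt1, 1152, 924 and 943 in NIC-Carm1, and 783 and 843 in NIC-Prmt6, against 1051 and 1383 in NIC. NIC replicate 1 lay below NIC-Prmt1 replicate 3 and NIC-Carm1 replicate 1, and NIC-Prmt6 was the one group with every library below both NIC libraries. Psmb5 fell in NIC-Prmt6 (-0.57 ± 0.16 SE, limma adjusted p = 0.0223), a call lost without NIC replicate 2, without either NIC-Prmt6 library and with averaging (up to 0.166 over the alternatives). In NIC-Prmt1 it was at -0.37 ± 0.15 (adjusted p = 0.0909) and in NIC-Carm1 at -0.27 ± 0.15 (adjusted p = 0.253).

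Psmb9 encodes the immunoproteasome subunit of the beta 1 position (chromosome 17, 34181987 to 34187764, minus strand). It had 891, 1374 and 1279 in NIC-Prmt1, 1129, 1660.5 and 1649 in NIC-Carm1, and 983 and 1089 in NIC-Prmt6, against 1414 and 1850.1 in NIC. NIC-Prmt1 and NIC-Prmt6 libraries lay below both NIC libraries, but no comparison passed: the log2 fold changes were -0.48 ± 0.22 in NIC-Prmt1 (limma adjusted p = 0.125), -0.15 ± 0.22 in NIC-Carm1 (adjusted p = 0.684) and -0.64 ± 0.24 in NIC-Prmt6 (adjusted p = 0.0598). Exons of Psmb9 overlap those of Tap1 on the other strand, and those of Psmb8 overlap the antisense gene Gm20496. Since the strand setting of the counting is not given in the sources used here, the effect of these overlaps on the counts is not known. The same holds for Psmb7 with Nek6, for Psma4 with AY074887, for Psma5 with 1700010K24Rik and for Psmc3 with Slc39a13. It also holds for Psmd1 with Htr2b, Psmd3 with Gm12356, Psmd9 with Gm26745 and Psmd13 with Sirt3. Psmb5 overlaps Mir686, and Psmd1 overlaps Gm21972, on the same strand, so those overlaps stay under either strand setting.

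Psmb6, the caspase-like constitutive subunit (chromosome 11, 70525367 to 70527858, plus strand), had 2458, 2841 and 3152 in NIC-Prmt1, 2947, 2750.2 and 2768 in NIC-Carm1, and 2324 and 2373 in NIC-Prmt6, against 3353 and 3786 in NIC. Every PRMT library lay below both NIC libraries. It fell in NIC-Prmt1 (-0.35 ± 0.11 SE, limma adjusted p = 0.0397) and in NIC-Prmt6 (-0.60 ± 0.12, adjusted p = 0.00452). In NIC-Carm1 it missed the threshold (-0.34 ± 0.11, adjusted p = 0.0646). The NIC-Prmt1 call ended in 13 alternatives, without either NIC library among them (up to 0.226), and the NIC-Prmt6 call ended only with averaging (0.0661).

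Psmb10 was not called in any comparison with NIC. The immunoproteasome subunit of the beta 2 position that it encodes (chromosome 8, 105935735 to 105938444, minus strand) had normalised read counts of 939, 1044 and 1311 in NIC-Prmt1, 1036, 1329 and 1335 in NIC-Carm1, and 1164 and 1143 in NIC-Prmt6, against 1117 and 1238 in NIC. The groups overlapped in every comparison. Its log2 fold changes were -0.11 ± 0.16 in NIC-Prmt1 (limma adjusted p = 0.609), 0.06 ± 0.16 in NIC-Carm1 (adjusted p = 0.832) and -0.03 ± 0.17 in NIC-Prmt6 (adjusted p = 0.913). In each comparison with NIC the sign turned under at least 1 of the alternatives, so no direction can be given.

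Psmb7, the trypsin-like constitutive subunit of the same position (chromosome 2, 38588036 to 38644087, minus strand), had 1933, 2192 and 2550.5 in NIC-Prmt1, 2685, 2346 and 2377 in NIC-Carm1, and 1784 and 1928 in NIC-Prmt6, against 3089.97 and 3358 in NIC. Again every PRMT library lay below both NIC libraries. Psmb7 fell in NIC-Prmt1 (-0.54 ± 0.12 SE, limma adjusted p = 0.00996) and in NIC-Prmt6 (-0.80 ± 0.13, adjusted p = 0.00186). In NIC-Carm1 it was at -0.39 ± 0.12 (adjusted p = 0.0564). The NIC-Prmt6 call held in every alternative, and the NIC-Prmt1 call ended without NIC replicate 2 (adjusted p = 0.0717).

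Within a library, the ratio of each immunoproteasome gene to its constitutive counterpart does not depend on the library's scaling. For Psmb8 over Psmb5 the log2 ratio was 1.58, 1.97 and 1.81 in NIC-Prmt1, 1.62, 2.19 and 2.22 in NIC-Carm1, and 1.78 and 1.77 in NIC-Prmt6, against 2.03 and 2.05 in NIC. For Psmb9 over Psmb6 it was -1.46, -1.05 and -1.30 in NIC-Prmt1, -1.38, -0.73 and -0.75 in NIC-Carm1, and -1.24 and -1.12 in NIC-Prmt6, against -1.25 and -1.03 in NIC. In both ratios replicate 1 of NIC-Carm1 lay well below its nearly identical companions. An exact permutation test of the 4 groups over all 25200 assignments of the 10 libraries gave p = 0.463 for Psmb8 over Psmb5 and p = 0.529 for Psmb9 over Psmb6 (adjusted over the 3 ratios, 0.529 for both). Over the alternatives the adjusted exact p of both ran from 0.0667, without NIC-Carm1 replicate 1, to 0.861, with averaging.

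The third ratio was lowest in NIC. For Psmb10 over Psmb7 it was -1.04, -1.07 and -0.96 in NIC-Prmt1, -1.37, -0.82 and -0.83 in NIC-Carm1, and -0.62 and -0.75 in NIC-Prmt6, against -1.47 and -1.44 in NIC. All 8 PRMT libraries lay above both NIC libraries, with NIC-Carm1 replicate 1 the nearest to them. The exact permutation test gave p = 0.0471, which did not pass after adjustment over the 3 ratios (0.141). Without NIC-Carm1 replicate 1 the adjusted exact p was 0.002381. That setting leaves NIC-Carm1 and NIC-Prmt6 each as a nearly identical pair, whose libraries the test counts as independent. The low p can come from these pairs, so it does not show a difference between the groups. Over the other alternatives, averaging of the nearly identical libraries among them, the adjusted exact p was 0.139 or higher.

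**Figure D4:**
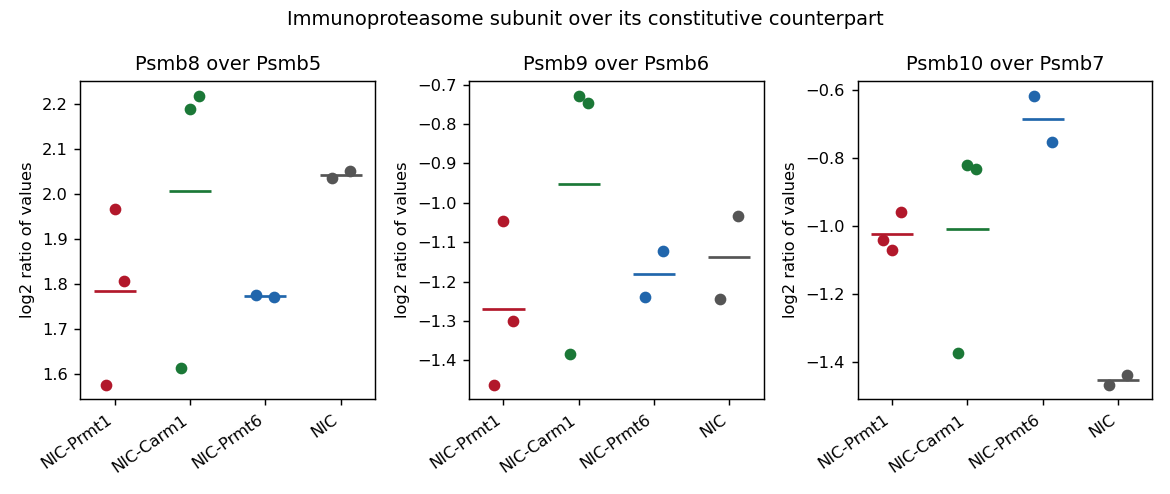
Log2 ratio of the values of each immunoproteasome gene to its constitutive counterpart (y axis, a separate scale in each panel) by group (x axis); each point is a library and each line a group mean. In the panel of Psmb10 over Psmb7 the NIC libraries (-1.47 and -1.44) lie below all 8 PRMT libraries, and NIC-Carm1 replicate 1 lies apart from the other NIC-Carm1 libraries in every panel.

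Between genes, levels can be compared only per length. The length used here was the union of all annotated exons of a gene, which was 3381 bases for Psmb8 and 899 for Psmb5. Where the transcripts made are shorter than this union, the level per length is too low. The order below therefore holds for this length only. As normalised read count per kilobase of that union, averaged over the 10 libraries, Psmb8 (1111) and Psmb5 (1101) came out close. So did Psmb10 (684) and Psmb7 (709). Psmb9 (364) lay well below Psmb6 (1536). Psma6 was the highest of the family (1761). The thymus subunit gene Psmb11, which is made by cortical epithelial cells of the thymus, was the lowest at 7.92. Its normalised read count was 42.4, 36.3 and 32.0 in NIC-Prmt1, 47.3, 52.6 and 39.8 in NIC-Carm1, and 38.03 and 15.5 in NIC-Prmt6, against 34.96 and 40.3 in NIC, with overlap between the PRMT groups and NIC and no call (limma adjusted p from 0.262 to 0.954 against NIC).

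The members did not vary alike around the family. When each gene is set against the family median of its library, on the log2 scale, the distance of Psmb2 varied by 0.14 over the 10 libraries, the least of all. Psmb11 varied the most (1.43), and after it came the immunoproteasome genes Psmb9 (0.71), Psmb8 (0.66) and Psmb10 (0.61). Psmd5 (0.57) and Psmd1 (0.55) followed. Psmd1 kept nearly the same normalised read count throughout, between 2640.0 (NIC-Carm1 replicate 2) and 3179.7 (NIC replicate 1), while the family median of its library moved between 1717 (NIC-Prmt6 replicate 1) and 2585 (NIC replicate 2). Psmb2 and Psmd1 were chosen for naming after their values were seen.

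Among the PRMT groups the proteasome genes were higher in NIC-Carm1 than in NIC-Prmt6. Of the 38 genes, 12 (31.6%) were called higher and none lower with limma, edgeR or DESeq2, where 18.4% of all genes tested were higher and 20.9% lower. No gene was lower at an unadjusted p under 0.05 either. The family median was 0.25. Alpha ring genes made up 5 of the 12 (Psma1, Psma4, Psma5, Psma6 and Psma7), and the others were Psmb2, Psmb7, Psmb8, Psmd7, Psmd13, Psmd5 and Psmd10. Without NIC-Carm1 replicate 2 or 3 the count was 6 or 4, without either NIC-Prmt6 library it was 2, and with averaging it was 1.

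Psmd5, the chaperone gene, differed most clearly between these groups (chromosome 2, 34849734 to 34874968, minus strand). Its normalised read count was 1401, 1235 and 1175 in NIC-Carm1 and 814 and 796 in NIC-Prmt6. The NIC-Prmt1 libraries were at 855, 954 and 951, and those of NIC at 1081 and 1242. NIC-Carm1 and NIC overlapped, and every NIC-Prmt1 and NIC-Prmt6 library was below both. It was 0.65 ± 0.11 higher in NIC-Carm1 than in NIC-Prmt6 on the log2 scale (SE, limma adjusted p = 0.00168), a call that held in every alternative run. It was also the single gene called between NIC-Prmt1 and NIC-Carm1, at -0.46 ± 0.10 (adjusted p = 0.00850), where 11.8% of all genes were called lower and 14.9% higher; that call ended with averaging and with NIC-Prmt1 replicates 1 and 3 left out (up to 0.163). Against NIC it fell in NIC-Prmt1 (-0.33 ± 0.11, adjusted p = 0.0432) and NIC-Prmt6 (-0.52 ± 0.12, adjusted p = 0.00790).

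Psma1, an alpha ring gene, showed a like order. It had 2299, 2401 and 2421 in NIC-Carm1 and 1618 and 1745 in NIC-Prmt6, a log2 fold change of 0.50 ± 0.10 (SE, limma adjusted p = 0.00527), and 2399 and 2568 in NIC. Psma6 had 2221, 2190.1 and 2157 in NIC-Carm1 and 1711 and 1688 in NIC-Prmt6 (0.36 ± 0.09, adjusted p = 0.0117). All NIC-Carm1 libraries lay above both NIC-Prmt6 libraries in both genes. Both calls ended without NIC-Prmt6 replicate 1 and with averaging, and that of Psma6 also without NIC-Prmt6 replicate 2 (adjusted p up to 0.109 for Psma1 and 0.161 for Psma6). Psmb8 was also higher in NIC-Carm1 (0.53 ± 0.18, adjusted p = 0.0397), a call lost without NIC-Carm1 replicate 2 or 3, without either NIC-Prmt6 library and with averaging (up to 0.275). Psmb7 was higher by 0.41 ± 0.12 (adjusted p = 0.0235), lost in 5 alternatives (up to 0.170).

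Between NIC-Prmt1 and NIC-Prmt6, limma called none of the 38 genes, where 2.54% of all genes were higher and 4.94% lower. At an unadjusted p under 0.05 there were 3, edgeR called 0 and DESeq2 called 1. The family median was 0.18, and the count was 5 without NIC-Prmt1 replicate 1.

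Some genes that work with the proteasome fell too. Of 24 genes for activators, assembly factors and other partners, which include the subunit genes Adrm1 and Shfm1, 12 fell in NIC-Prmt1, 7 in NIC-Carm1 and 10 in NIC-Prmt6, where 14.4%, 9.36% and 17.8% of all genes fell. None rose with limma, edgeR or DESeq2, also at an unadjusted p under 0.05 with limma. The medians were -0.30, -0.19 and -0.30. Txnl1, a thioredoxin-like protein bound to the regulatory particle, fell in all 3 groups: it averaged 1793 ± 130 in NIC-Prmt1, 1756 ± 147 in NIC-Carm1 and 1687 ± 10.96 in NIC-Prmt6, against 2644 ± 174 in NIC (SD), with log2 fold changes of -0.56, -0.59 and -0.65 (limma adjusted p = 0.00404, 0.00556 and 0.00204). Pomp, which guides assembly of the core particle, fell in NIC-Prmt6 to 1415 ± 10.4, against 2307 ± 128 in NIC (-0.70 ± 0.12 SE, adjusted p = 0.00233). Without NIC replicate 2 these 24 genes gave 3, 4 and 5 calls, and with averaging 5, 1 and 3.

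The list also holds regulators of proteasome gene expression, and not all of them were called. Ddi2, the protease that activates the Nfe2l1 product, averaged 921 ± 205 in NIC-Prmt1, against 1806 ± 55.6 in NIC (SD; -0.99 ± 0.15 SE, limma adjusted p = 0.00191). Nfe2l2, a related transcription factor gene, averaged 3817 ± 184 in NIC-Carm1, against 7248 ± 680 in NIC (-0.92 ± 0.11, adjusted p = 0.00119), and in NIC-Prmt6 it was not shown to differ (0.21 ± 0.12, adjusted p = 0.184). Ngly1, the deglycosylase that acts on the Nfe2l1 product, was called in no comparison with NIC (0.06, 0.06 and -0.14 in NIC-Prmt1, NIC-Carm1 and NIC-Prmt6). It and Nfe2l1 were named after their values were seen. Nfe2l1 averaged 12401 ± 280 in NIC-Prmt1, 11814 ± 348 in NIC-Carm1 and 12241.5 ± 249 in NIC-Prmt6, against 16757 ± 890 in NIC (SD), and its log2 fold changes were -0.43, -0.50 and -0.45 (adjusted p = 0.00678, 0.00637 and 0.00592).

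Class I antigen presentation genes were called in NIC-Prmt1 and NIC-Prmt6. Of 15 genes, 7 fell and 2 rose in NIC-Prmt1, and 10 fell and 2 rose in NIC-Prmt6, with medians of -0.31 and -0.57. Among all genes, 14.4% fell in NIC-Prmt1 and 17.8% in NIC-Prmt6. The shares of all genes that rose are given with the proteasome counts above. In NIC-Carm1 limma, edgeR and DESeq2 called 0, with 2 lower at an unadjusted p under 0.05 in limma and a median of -0.14. Compared directly, 7 of the 15 were lower and 2 higher in NIC-Prmt1 than in NIC-Carm1, against 1 lower and 0 higher with averaging. Without averaging, 11.8% of all genes were lower and 14.9% higher in this comparison. B2m, the light chain of class I molecules, averaged 21599 ± 6402 in NIC-Prmt1, against 56719 ± 10998 in NIC (SD; -1.42 ± 0.26 SE, limma adjusted p = 0.00440). H2-K1, a class I heavy chain gene, fell by 1.35 on the log2 scale in NIC-Prmt1 (limma adjusted p = 0.00448). In NIC-Prmt6 it fell by 1.53 (adjusted p = 0.00258) and H2-T23, a nonclassical heavy chain gene, by 1.16 (adjusted p = 0.00484). H2-K1 shares long stretches with other class I genes, so its reads may be split between them. The interferon regulator gene Irf1 rose by 0.60 in NIC-Prmt1 (limma adjusted p = 0.0221). In NIC-Prmt6 it rose by 0.98 (adjusted p = 0.00285). The peptide transporter gene Tap2 rose by 0.39 in NIC-Prmt1 (adjusted p = 0.0462), and Irf2 rose by 0.35 in NIC-Prmt6 (adjusted p = 0.0188). Exons of Tap2 overlap those of Gm20496 and Gm15821 on the other strand, and the effect of these overlaps on the Tap2 count is not known. Without NIC replicate 2 the list gave 2 lower calls in each of NIC-Prmt1 and NIC-Prmt6, and with averaging it gave 6 and 1 lower and 0 and 1 higher.

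Genes for ubiquitin supply were called in both directions. Of 14 genes, 3 fell in NIC-Prmt1, 5 fell and 1 rose in NIC-Carm1, and 3 fell and 1 rose in NIC-Prmt6, with medians of -0.24, -0.18 and -0.18. Among all genes, 14.4%, 9.36% and 17.8% fell in these groups, and the shares that rose are given above. Whether this list was called more often than other genes was not tested. The conjugating enzyme gene Ube2d3 fell by 0.41 on the log2 scale in NIC-Prmt1 (limma adjusted p = 0.00964). It fell by 0.61 in NIC-Carm1 (adjusted p = 0.00326), and the activating enzyme gene Uba1 fell by 0.30 in NIC-Prmt1 (adjusted p = 0.0279). The ligase gene Ube3c rose by 0.40 in NIC-Carm1 (adjusted p = 0.0150). Rps27a, which encodes ubiquitin fused to a ribosomal protein, fell by 0.83 in NIC-Prmt6 (adjusted p = 0.00413), and the activating enzyme gene Uba6 rose by 0.44 (adjusted p = 0.0326). Without NIC replicate 2 there were 1, 3 and 1 lower calls, and with averaging 1, 0 and 0.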

How the data were processed

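RNA-seq of mammary epithelial cells from 10 libraries was used. Per the submitters' processing notes, the tools were TopHat2 2.0.10, HTSeq 0.6.0 and DESeq 1.18.0, with build mm10. The sources used here do not give the annotation, filters or strand setting. The deposited signal is a size-factor-normalised read count per gene: in every column 100% of values were whole multiples of the smallest step (tolerance 0.01), which gave back whole reads. Intervals from reads would cover counting error only.

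Limma-trend (limma 3.58.1, R 4.3.3) was fitted on log2(value + 1) to 15694 genes (value no lower than 10 in 2 or more libraries), as 1 fit of 4 group means over all 10 libraries, with Benjamini-Hochberg adjustment over all genes and a threshold of 0.05. Fold changes on this scale understate low genes. It was tested on simulated data. On recovered reads, edgeR 4.0.16 called 4538, 2456 and 5778 genes in NIC-Prmt1, NIC-Carm1 and NIC-Prmt6 against NIC, and DESeq2 1.42.0 called 5245, 3216 and 6210. Further alternatives were fits of 2 groups, a replicate block, upper-quartile, library-total and TMM rescaling, pseudocounts of 0.5 and 5, no filter or a filter of 50, each library left out, and averaging of nearly identical libraries; library-total, TMM and the joint removal of NIC-Prmt1 replicates 1 and 3 were chosen after seeing the data.

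Named are the catalytic and thymus subunits (Psmb5 to Psmb11) and, per comparison, the 3 other members called with the smallest adjusted p in each direction; of related lists, the 2 called with the smallest adjusted p in each direction against NIC. Some genes that this rule names are not reported here. Members and lists were chosen with earlier results of these data known. Gene positions and exon lengths are from the GENCODE annotation of GRCm38.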

Additional observations from a re-analysis of the deposited data

How the results depend on the processing

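Without the groups that were not compared, 9 genes were called lower in NIC-Prmt1 and 4 in NIC-Carm1 against NIC. Averaging nearly identical libraries gave 9, 0 and 7 lower calls in NIC-Prmt1, NIC-Carm1 and NIC-Prmt6, 0 in NIC-Prmt1 against NIC-Carm1, 1 higher in NIC-Carm1 against NIC-Prmt6, and 3 over the 4 groups. Library-total rescaling gave 10 lower calls in NIC-Prmt1, 1 lower and 1 higher in NIC-Carm1, 6 lower in NIC-Prmt1 against NIC-Carm1 and 24 higher in NIC-Carm1 against NIC-Prmt6. Upper-quartile rescaling gave 4 lower in NIC-Carm1, 2 lower in NIC-Prmt1 against NIC-Carm1, 1 higher in NIC-Prmt1 against NIC-Prmt6 and 21 higher in NIC-Carm1 against NIC-Prmt6. DESeq2 gave 15 lower in NIC-Carm1, 3 lower in NIC-Prmt1 against NIC-Carm1 (edgeR 2) and 1 higher in NIC-Prmt1 against NIC-Prmt6. Leaving out NIC-Prmt1 replicates 1 and 3 gave 8 lower in NIC-Prmt1, 17 in NIC-Carm1 and 0 in NIC-Prmt1 against NIC-Carm1.

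With 1 library left out at a time, the lower calls ran from 3 to 23 in NIC-Prmt1, 0 to 16 in NIC-Carm1, 17 to 31 in NIC-Prmt6 and 1 to 2 in NIC-Prmt1 against NIC-Carm1. The higher calls ran from 0 to 5 in NIC-Prmt1 against NIC-Prmt6 and 2 to 17 in NIC-Carm1 against NIC-Prmt6, and the calls over the 4 groups from 12 to 27. The adjusted exact p of Psmb10 over Psmb7 ran from 0.002381 to 0.425.

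The replicate numbers did not pair the libraries: of 13 same-numbered pairs, 1 deviated together with a correlation over 0.1 (-0.132 to 0.1001). A replicate block gave 3 lower calls in NIC-Carm1, 3 in NIC-Prmt1 against NIC-Carm1 and 5 higher in NIC-Carm1 against NIC-Prmt6.

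Among named genes, 1146 results kept direction and side, 63 lost and 27 gained a call, and 23 uncalled ones turned sign. Psmb10 turned after library-total rescaling (0.014 in NIC-Prmt1 and 0.074 in NIC-Prmt6), with the block (-0.039 in NIC-Carm1, -0.011 in NIC-Carm1 against NIC-Prmt6) and with averaging (-0.001031 in NIC-Carm1). Psmb11 turned in NIC-Prmt1 with the block (0.068), upper quartile (0.013) and library total (0.091). Psmb9 turned in NIC-Carm1 with library total (0.030), and Psmb6 in NIC-Prmt1 against NIC-Carm1 without NIC-Prmt1 replicates 1 and 3 (0.011). With 1 library left out, Psmb11 ran from -0.136 to 0.067 in NIC-Prmt1, -1.23 to 0.018 in NIC-Prmt6 and -0.051 to 1.19 in NIC-Prmt1 against NIC-Prmt6. Psmb10 ran from -0.015 to 0.180 in NIC-Carm1, -0.102 to 0.046 in NIC-Prmt6 and -0.220 to 0.021 in NIC-Prmt1 against NIC-Prmt6. Psmb9 ran from -0.345 to 0.043 in NIC-Carm1, and in NIC-Prmt1 against NIC-Carm1 Psmb5 ran from -0.183 to 0.0040 and Psmb6 from -0.094 to 0.086. The cause was not tested. Low counts limit Psmb11.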
